A study of Mus musculus with 2 samples.

Results

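The genes described here are those of the interferon response: the receptors that sense interferon, the STAT and IRF transcription factors that carry the signal, and the antiviral and GTPase genes it switches on. They were taken from the gene names on 1 dual-colour mouse oligonucleotide array, as every probe that was no control and whose name in the scanner output began with, or equalled, one of a fixed set of stems (Irf with a digit, Ifit, Ifitm, Oas, Gbp with a digit, Mx1, Mx2, Stat with a digit, Isg, Ifih1, Ifnar, Ifngr, Trim25, Rsad2, Usp18, Bst2, Iigp, Igtp, Irgm, Ddx58, Zbp1, Xaf1 and Parp14). The rule used names only and no measured value, but the members were chosen with earlier results of these data known. It found 103 of 41170 probes, which stood for 67 genes, and 64 of these gave a ratio among 17244 named genes that did. Irf4, Oas1g and Oas1h were not well above background in either channel and gave none, and no probe carried the name Xaf1.

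The array set airway epithelium of the mouse lung before birth at E14.5 (embryonic days are written with E) against the same epithelium at E18.5, in a study of FOXJ1, a transcription factor of motile cilia. Both groups were wild-type male foetuses of the CD-1 strain, an outbred stock, with no transgene or treatment named for either. Epithelium of the airways inside the lobes had been cut by laser from stained frozen sections of 1 whole lung per age, and its RNA was amplified in a single round. E14.5 RNA carried the green dye Cy3 and E18.5 RNA the red dye Cy5, with no dye swap, so dye and age cannot be told apart. With 1 sample per age there was no replicate check of any difference and no test was made: a gene is called higher or lower here when its intensity at E18.5 was at least 2-fold above or below that at E14.5. Each value below is a normalized intensity at E14.5, then at E18.5, followed by the log2 ratio of E18.5 over E14.5. All values of a gene come from its brightest probe unless another probe is named, and levels are not compared between member genes.

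Interferons of type I (alpha and beta) bind the receptor pair IFNAR1 and IFNAR2, and interferon gamma binds IFNGR1 and IFNGR2. Kinases of the JAK family on these chains phosphorylate STAT proteins, which join IRF9 and bind the interferon-stimulated response element (ISRE) in target promoters, while STAT pairs bind the gamma-activated site (GAS). The targets include enzymes and GTPases that block viral replication, and further IRF and STAT genes. In the airway epithelium this system is known as an early defence against inhaled viruses.

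Promoters from RefSeq (build GRCm38.p6) were at hand for 54 of the 67 genes, as 65 windows from 250 bases before to 50 bases after an annotated start. They were searched on both strands for the core of the ISRE, GAAA, 2 bases of any kind and GAAA again, and for the GAS, TTCNNNGAA, which reads the same on both strands. The ISRE core was present in 24 of the 65 windows (36.9%) and in 1131 of 32851 windows of all genes (3.44%). The GAS was present in 16 of the 65 (24.6%) and in 2726 of all windows (8.30%). A match says only that these letters are there. The 150 bases before the start are shown for 7 genes that were higher at E18.5, to set the place and number of the ISRE core matches, in capitals, beside the values that follow. Overlapping matches are run together in capitals, and each sequence is read 5′ to 3′ on the strand of its gene.
Rsad2 (chr12:26456453-26456602, minus strand): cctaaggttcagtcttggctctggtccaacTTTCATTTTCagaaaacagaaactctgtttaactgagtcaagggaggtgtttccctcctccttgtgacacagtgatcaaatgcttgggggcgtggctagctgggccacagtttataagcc
Irgm2 (chr11:58214827-58214976, plus strand): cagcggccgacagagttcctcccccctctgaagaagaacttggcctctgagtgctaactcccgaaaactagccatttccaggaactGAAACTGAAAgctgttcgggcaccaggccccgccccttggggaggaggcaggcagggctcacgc
Igtp (chr11:58199406-58199555, plus strand): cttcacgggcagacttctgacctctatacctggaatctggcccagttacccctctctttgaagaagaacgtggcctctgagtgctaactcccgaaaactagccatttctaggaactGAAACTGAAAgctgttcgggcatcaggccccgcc
Oas1a (chr5:120907526-120907675, minus strand): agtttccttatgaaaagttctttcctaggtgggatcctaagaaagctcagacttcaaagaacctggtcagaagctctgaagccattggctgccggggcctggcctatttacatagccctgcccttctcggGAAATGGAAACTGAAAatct
Gbp3 (chr3:142559894-142560043, plus strand): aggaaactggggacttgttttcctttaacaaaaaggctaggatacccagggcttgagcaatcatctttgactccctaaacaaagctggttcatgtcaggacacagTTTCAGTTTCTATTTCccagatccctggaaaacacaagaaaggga
Ifit1 (chr19:34640739-34640888, plus strand): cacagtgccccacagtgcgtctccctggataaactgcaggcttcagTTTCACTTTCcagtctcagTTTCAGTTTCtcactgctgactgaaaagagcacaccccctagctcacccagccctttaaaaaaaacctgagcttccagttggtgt
Isg15 (chr4:156200819-156200968, minus strand): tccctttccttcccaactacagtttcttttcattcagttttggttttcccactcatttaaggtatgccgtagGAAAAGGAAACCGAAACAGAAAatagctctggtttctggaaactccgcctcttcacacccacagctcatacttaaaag
Only higher genes with a match are shown above. Of the measured members with a match in a window, 12 of 23 were higher, as were 15 of 28 without one. The next windows belong to Ifit3 and Ifitm2, which lay within 2-fold, and to Stat4, which was lower at E18.5. Gbp3 and Stat4 each have another window, which held no match.
Ifit3 (chr19:34583379-34583528, plus strand): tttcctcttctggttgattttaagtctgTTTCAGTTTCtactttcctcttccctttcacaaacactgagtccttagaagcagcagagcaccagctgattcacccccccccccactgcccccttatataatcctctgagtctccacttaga
Ifitm2 (chr7:140955962-140956111, minus strand): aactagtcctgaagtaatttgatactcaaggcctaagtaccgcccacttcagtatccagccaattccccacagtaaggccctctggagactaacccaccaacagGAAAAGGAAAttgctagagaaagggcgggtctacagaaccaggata
Stat4 (chr1:52008090-52008239, plus strand): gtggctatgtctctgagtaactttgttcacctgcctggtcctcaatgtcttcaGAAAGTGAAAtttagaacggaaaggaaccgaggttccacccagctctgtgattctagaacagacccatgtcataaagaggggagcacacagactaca
Irgm2 and Igtp, which encode related GTPases, shared an unbroken run of 38 bases between their windows, and the match lay inside similar surroundings in both. Isg15 held 3 overlapping matches, and Gbp3 and Oas1a held 2 each. In all, 7 of the 65 windows held overlapping ISRE core matches, 8 held both motifs and 2 had an ISRE core match that overlapped a GAS match.

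**Figure D1:**
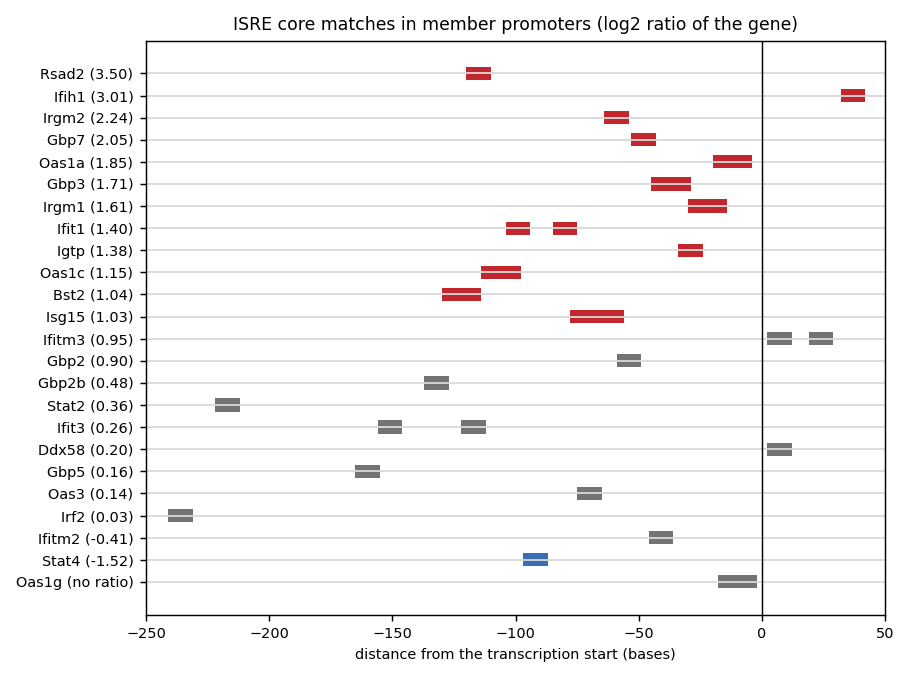
ISRE core matches in the promoter windows of the 24 member genes that have any. The horizontal axis is the distance from the annotated start in bases, each block is a match of 10 bases, and the log2 ratio of the gene stands beside its symbol. Blocks are red for genes at least 2-fold higher at E18.5, blue for at least 2-fold lower and grey for within 2-fold or no ratio, and red blocks lie on both sides of the start.

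Across the 64 genes with a ratio, 33 (51.6%) had an E18.5 intensity 2-fold or more above that at E14.5, beside 17.3% of all named genes (2986 of 17244). Only 3 members (4.69%) were at least 2-fold lower, beside 10.1% of all genes (1738), and 28 lay within 2-fold. The median log2 ratio of the members was 1.01, beside 0.06 over all genes, and 53 members lay above 0 and 11 below. In the scanner software's own ratio, 51 lay above 0 and 13 below, 34 were past 2-fold upwards (17.9% of all genes were) and 4 downwards (15.4%). The count of higher genes includes 2 for which only a bound was known, since their probe was not well above background at E14.5. In all, 5 of the 64 values were such bounds. A bound of this kind was kept only when above 0, so its sign was fixed beforehand. Bounds under 2-fold were counted as within 2-fold, here and in the lists below, although the true ratio may be larger. In RNA from dissected tissue, more cells of a type and more RNA per cell cannot be told apart. The counts by role below are to be read beside the same shares of all genes, 17.3% higher and 10.1% lower.

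**Figure D2:**
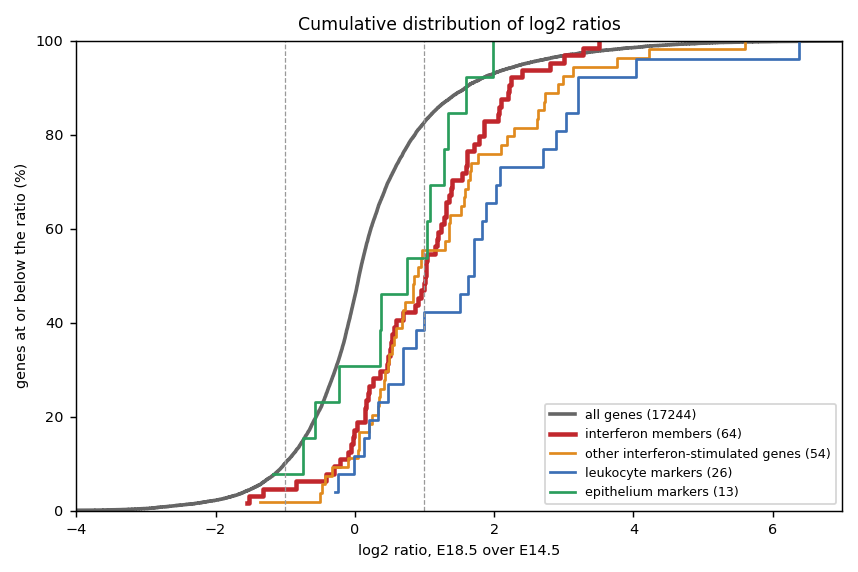
Cumulative share of genes (vertical axis, percent) at or below each log2 ratio of E18.5 over E14.5 (horizontal axis), for all named genes and for 4 lists. The curve of the 64 members runs to the right of that of all 17244 genes over most of its length, and dashed lines mark 2-fold. The curves of other interferon-stimulated genes and leukocyte markers lie to the right too. The median of the epithelium markers (0.75) also lies to the right of that of all genes (0.06).

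The receptor chains were measured at both ages. Ifnar2, the chain of the type I receptor with the higher affinity for ligand, had an intensity of 3559 at E14.5 and 10716 at E18.5 (log2 ratio 1.59, 3.01-fold), and its second probe gave 1.57. Its partner Ifnar1 stood at 4846 and 4793 (−0.02), so the chains of this receptor differed in their ratios. For the gamma receptor, the ligand-binding chain Ifngr1 was at 10390 and 21059 (1.02, 2.03-fold), and the signalling chain Ifngr2 at 4234 and 6017 (0.51, second probe 0.71). Ifngr1 lay just past 2-fold here and just inside it in the scanner software's ratio (0.87). Ifnar1 was so near 0 that its sign turned with median centring (0.02).

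Among the 7 STAT genes, 3 were higher, 1 was lower and 3 lay within 2-fold, with a median of 0.46. Stat3, which carries signals of interleukin 6 and related cytokines as well as of interferons, had the largest ratio, from 4283 to 29960 (2.81, 6.99-fold). Its probe was spotted 8 times, with an SD of the log2 ratio of 0.04 over the spots, and every spot was brighter at E18.5 (27691 to 31794) than at E14.5 (3783 to 4519). A second Stat3 probe, 3076 bases away, was dim and near 0 (126 and 153, 0.28), so the 6.99-fold value rests on 1 of 2 probes. That second probe lies 258 bases from the Stat5a probe, which is on the opposite strand.

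Stat6, the mediator of interleukin 4 and interleukin 13 signals, was at 3895 and 8817 (1.18, 2.26-fold), and its second probe gave 1.16. Another Stat6 probe was well above background at E18.5 only, with intensities of 91.1 and 90.3, and gave no bound.

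Stat2, which acts with IRF9 in the type I response, was at 482 and 617 (0.36), within 2-fold. Stat5a was at 568 and 783 (0.46) and Stat5b at 4143 and 3976 (−0.06), both factors of prolactin and cytokine signals. Stat4, which serves interleukin 12 signals in lymphocytes, was the member of this family that was lower, at 944 and 330 (−1.52, 2.86-fold lower; −2.0 by the scanner software).

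Of the 9 IRF genes on the array, 8 gave a ratio, all above 0 in the main values: 6 were higher and 2 lay within 2-fold, with a median of 1.30. Irf1, a factor induced by interferon gamma, was at 5190 and 22239 (2.10, 4.28-fold). A second Irf1 probe, which spans a splice junction, was dimmer and gave 0.92 (186 and 351). Irf9, the DNA-binding partner of STAT proteins, was at 1530 and 3889 (1.35, 2.54-fold), with its second probe at 0.36.

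Irf7, the factor that amplifies transcription of type I interferon genes, was at 144 and 350 (1.28, 2.44-fold). It was dim at E14.5, and the scanner software's ratio was larger (1.80). Irf3, which acts with IRF7 downstream of the nucleic acid sensors, was at 8503 and 17106 (1.01, 2.01-fold). That call is the least firm of the family: its second probe lay at −0.07 and the scanner software gave 0.85. Irf5 was at 199 and 607 (1.61, 3.04-fold), and Irf8 at 1122 and 2781 (1.31, 2.48-fold, second probe 0.55). IRF5 and IRF8 are best known from macrophages and dendritic cells. Irf2, which opposes IRF1 at many promoters, was at 2030 and 2067 (0.03, and −0.14 by the scanner software).

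The Irf7 signal came from a single probe, which spans a splice junction, and the dimmer Irf1 probe does so too. Both are shown, with positions on mm8, the build that the scanner output names, because these values depend on them.
Irf7 (chr7:141116085-141116435, minus strand): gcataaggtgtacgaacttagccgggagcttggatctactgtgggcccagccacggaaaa
Irf1 (chr11:53617367-53617512, plus strand): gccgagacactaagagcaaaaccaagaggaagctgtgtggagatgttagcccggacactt

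**Figure D3:**
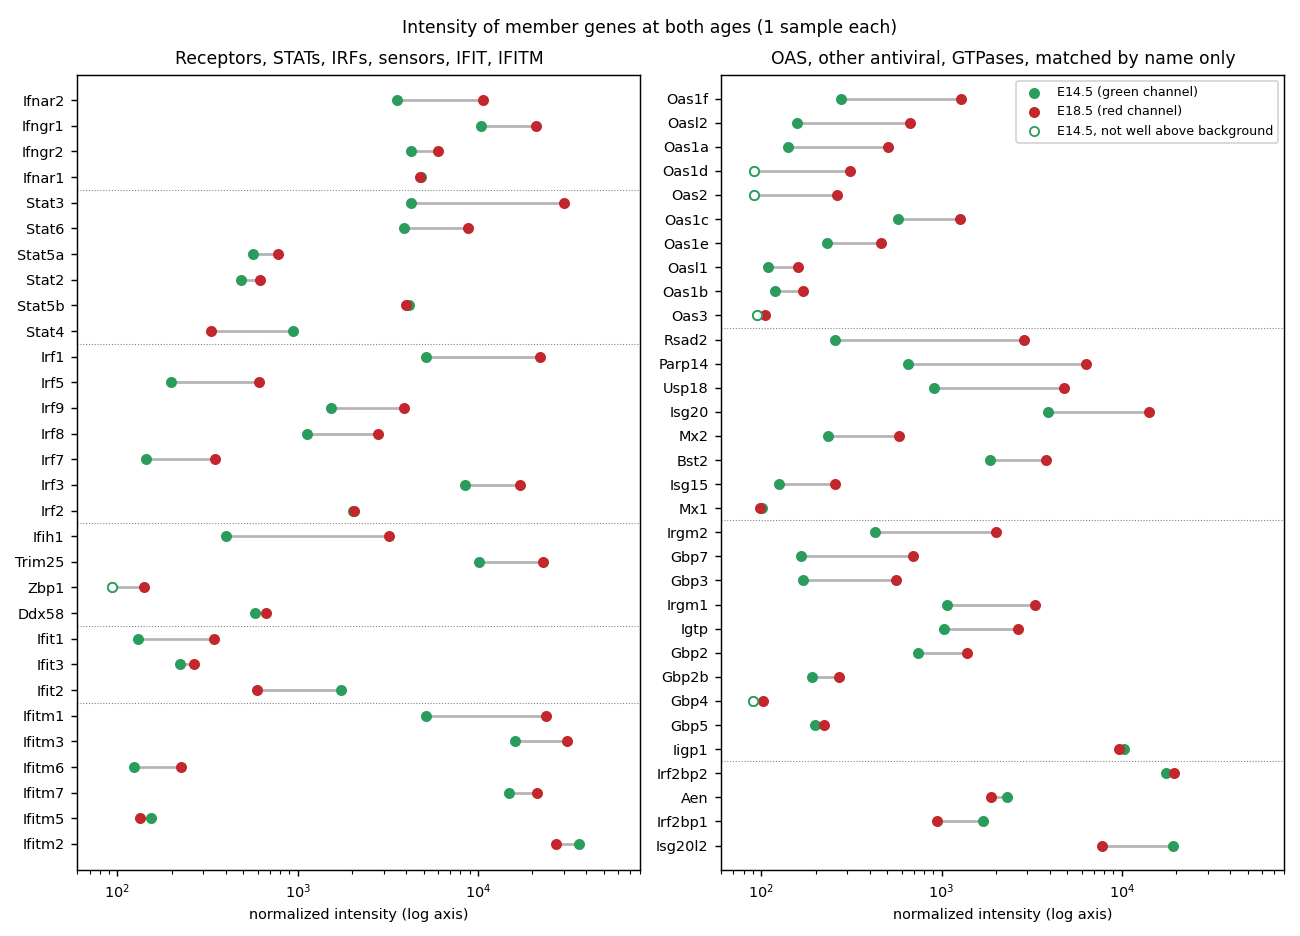
Normalized intensity (horizontal axis, log scale) of the member genes described here at E14.5 (green) and E18.5 (red), 1 sample each, grouped by role and ordered by ratio. Open symbols mark E14.5 values not well above background. Rsad2, Parp14 and Ifih1 have the widest gaps to the right, and Stat4, Ifit2 and Isg20l2 are the genes with E18.5 more than 2-fold to the left.

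Among the cytoplasmic sensors, the values of the RNA helicases differed. Ifih1, which encodes MDA5, a sensor of long double-stranded RNA, was at 399 and 3214 (3.01, 8.05-fold), and its other probe was not well above background in either channel. Ddx58, which encodes RIG-I, a sensor of short RNA ends, was at 581 and 669 (0.20, with its other probes at −0.13 and 0.20, and −0.03 by the scanner software). Trim25, the ubiquitin ligase that activates RIG-I, was at 10132 and 23129 (1.19, 2.28-fold), with its second probe at 0.20. Zbp1, a sensor of Z-form nucleic acid, was well above background at E18.5 only. Its lower bound of 0.59 (1.51 by the scanner software) leaves the size of its ratio open.

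The effector families, meaning the OAS, IFIT, IFITM, GTPase and other antiviral genes together, had 37 members with a ratio. Of these, 20 were higher (54.1%, beside 17.3% of all genes), 1 was lower (2.70%, beside 10.1%) and 16 lay within 2-fold. Their median was 1.04 and 32 of them lay above 0, of which 4 were bounds, kept only when above 0. Of the 20 higher genes, 2 were known by a bound only. Rsad2 had the largest ratio of all members. It encodes viperin, a radical SAM enzyme that makes a chain-terminating nucleotide, and its intensities were 255 and 2886 (3.50, 11.3-fold). Both other Rsad2 probes span splice junctions and were well above background at E18.5 only (84.2 and 197, then 96.3 and 396). Their bounds were at least 1.23 and 2.04 on the log2 scale, so all 3 probes were past 2-fold. These 2 probes are shown since they read spliced RNA.
Rsad2 (chr12:27036988-27040289, minus strand): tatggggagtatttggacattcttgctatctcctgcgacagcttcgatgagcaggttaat
Rsad2 (chr12:27031827-27034865, minus strand): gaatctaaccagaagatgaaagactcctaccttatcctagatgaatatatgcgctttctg

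Parp14, an ADP-ribosyltransferase, was at 651 and 6309 (3.28, 9.70-fold). Its other probes, both dim at E14.5, gave lower bounds of 0.72 and 0.12, too small for a 2-fold call. The large value therefore rests on 1 of 3 probes. Usp18, the protease that removes ISG15 from proteins and damps the type I receptor, was at 913 and 4812 (2.40, 5.27-fold). Isg20, an exonuclease, was at 3922 and 14131 (1.85, 3.60-fold, second probe 1.51). The next members lay closer to the 2-fold line. Mx2, a dynamin-like GTPase, was at 234 and 581 (1.31, 2.49-fold). Bst2, the tetherin that holds budding viruses at the cell surface, was at 1859 and 3811 (1.04, 2.05-fold; 0.94 by the scanner software). Isg15, the ubiquitin-like modifier, was dim, at 125 and 256 (1.03, 2.04-fold; 1.70 by the scanner software).

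The Isg15 value carries a doubt of its own. The scanner output places this probe on chromosome 17 while RefSeq has the gene on chromosome 4, and it was the only 1 of the 103 member probes off its gene's chromosome. Mx1 was close to the floor at both ages (100.4 and 98.3, −0.03), unlike Mx2.

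Active oligoadenylate synthetases make a second messenger that activates RNase L, and the family here includes the OAS-like genes Oasl1 and Oasl2. Which of these genes encode active enzymes was not examined. Of 12 genes on the array, 10 gave a ratio: 6 were higher, 4 lay within 2-fold and 0 were lower, with a median of 1.34. Oas1f was at 278 and 1277 (2.20, 4.59-fold). Oasl2 was at 159 and 666 (2.07, 4.20-fold), and Oas1a at 140 and 505 (1.85, 3.61-fold). The 3 were dim at E14.5, and the scanner software gave ratios of 2.33, 2.57 and 2.57 for them. Oas1d and Oas2 were not well above background at E14.5 (90.8 and 90.9) and stood at 311 and 263 at E18.5, at least 3.43-fold and at least 2.90-fold higher. Such a bound divides the E18.5 signal by the lowest E14.5 signal that passed as well above background, or by the probe's own where that was higher. The other Oas2 probe was not well above background in either channel (78.0 and 79.4), so the Oas2 call rests on 1 of 2 probes.

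Oas1c was at 573 and 1269 (1.15, 2.21-fold). Within 2-fold lay Oas1e (0.99), Oasl1 (0.56) and Oas1b (0.52), and the scanner software put Oas1e (1.08) and Oasl1 (1.43) past it. Oas3 was counted with them by a lower bound of 0.14, which leaves a larger ratio possible. On mm8 the Oas1, Oas2 and Oas3 probes lie together on chromosome 5 between 120991042 and 121182177, and 5 of the 8 measured genes there were higher. Oas1 genes are similar copies of each other, so probes of 60 bases may read more than 1 of them. The promoter windows of Oas1a and Oas1g shared a run of 56 bases.

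The IFIT family, RNA-binding proteins of the type I response, went both ways. Ifit1 was at 130 and 342 (1.40, 2.64-fold; 2.12 by the scanner software). Ifit3 was at 223 and 267 (0.26). Ifit2 was at 1735 and 592 (−1.55, 2.93-fold lower; −1.93 by the scanner software), the lowest ratio of all members, and its other probe was not well above background in either channel. The 3 genes are neighbours on chromosome 19, between 34639814 and 34715362 on mm8. The windows of Ifit1 and Ifit3 held ISRE core matches, and those of Ifit2 held none.

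The IFITM genes encode membrane proteins that hinder viral entry. Ifitm1 was the only 1 of 6 past 2-fold, at 5144 and 23807 (2.21, 4.63-fold). Ifitm3 lay just under it, at 16135 and 31211 (0.95, 1.93-fold), and Ifitm7 was at 14843 and 21433 (0.53). Ifitm2 was slightly below 0, at 36342 and 27329 (−0.41; −0.91 by a second probe, which the scanner output places elsewhere on chromosome 7, at 46700586). Thus neighbouring genes of the chromosome 7 group had ratios from −0.41 to 2.21. Ifitm6 was dim (0.87; 1.49 by the scanner software), and Ifitm5, best known from bone, was dim at both ages (154 and 133, −0.22).

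Of the 10 interferon-inducible GTPases, 5 were higher and 5 lay within 2-fold, with a median of 1.14. Proteins of these families take part in the defence against intracellular parasites and bacteria. Irgm2 was at 426 and 2017 (2.24, 4.74-fold), Irgm1 at 1075 and 3285 (1.61, 3.06-fold, second probe 1.68) and Igtp, which encodes IRGM3, at 1029 and 2669 (1.38, 2.59-fold). So all 3 IRGM genes were past 2-fold, on 4 of 4 measured probes. A further Irgm1 probe was not well above background in either channel. Of the guanylate-binding proteins, Gbp7 (166 and 690; 2.05, 4.15-fold) and Gbp3 (170 and 557; 1.71, 3.28-fold) were higher. Gbp2 was at 738 and 1381 (0.90, 1.87-fold), Gbp2b at 192 and 268 (0.48), and Gbp5 at 198 and 222 (0.16). In the Gbp cluster of chromosome 3, between 142459201 and 142575200 on mm8, 2 of 5 genes were therefore higher. Iigp1 was at 10327 and 9652 (−0.10) and had no ratio past 2-fold in any normalization.

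The rule also took 4 genes by the letters of their name alone, which are not known as interferon targets in the same sense. Isg20l2, a nucleolar exonuclease of ribosome maturation, was at 19363 and 7728 (−1.33, 2.51-fold lower, second probe −0.62). Irf2bp1 and Irf2bp2, corepressors that bind IRF2, were at −0.85 and 0.15, and Aen, an apoptosis nuclease, at −0.29. Without these 4, a choice made after seeing the data, 33 of 60 genes were higher and 2 were lower.

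**Figure D4:**
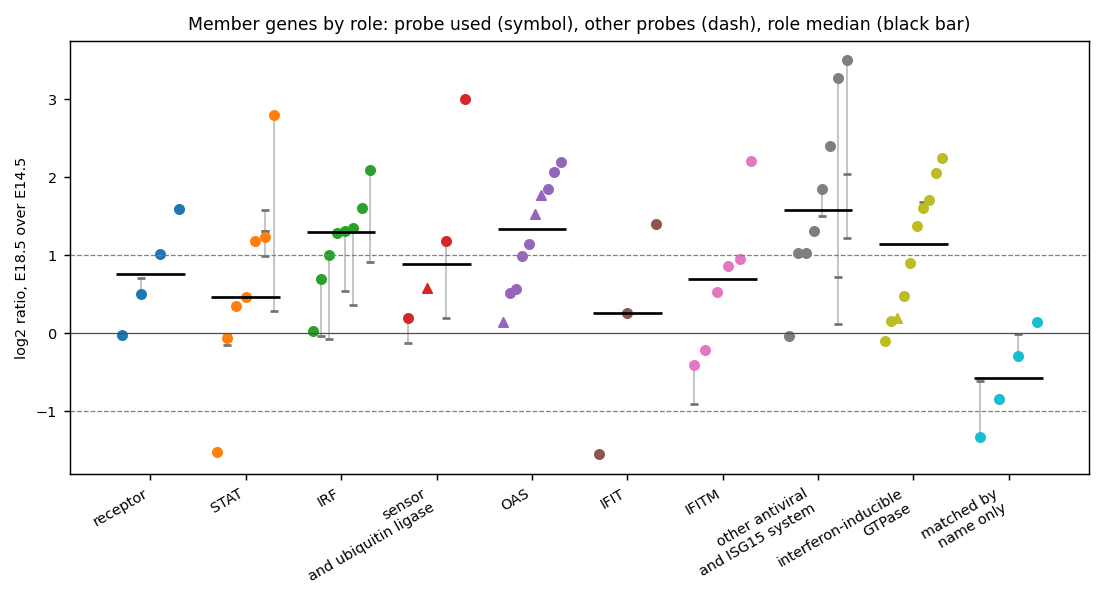
Log2 ratio of E18.5 over E14.5 (vertical axis) of each member gene by role: circles are measured ratios, triangles are lower bounds for genes dim at E14.5, short dashes are other probes of the same gene, and black bars are the median of each role. Dashed lines mark 2-fold. Vertical lines to the other probes of Stat3, Parp14 and Rsad2 are the longest, and the OAS, IRF and GTPase medians lie above the 2-fold line while the IFIT, IFITM and STAT medians lie below it.

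Probes of the same gene were the widest spread that could be measured. Of 20 member genes with several measured probes, 17 had all of them on the same side of 0, 5 had all of them past 2-fold upwards, and 9 had probes on both sides of the 2-fold line. The range between probes had a median of 0.65 on the log2 scale, while repeated spots of a probe over the whole array had a median SD of 0.04 (204 probes). Neither spread holds any difference between animals.

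Members with and without an ISRE core match had medians close to each other, given here as a description. Of the 23 measured genes with a match, 12 were higher and 1 was lower, with a median of 1.03. Of the 28 measured genes with windows but no match, 15 were higher and 2 were lower, with a median of 1.01. Among genes that are no members, 18.4% of 473 with a match and 17.2% of 13098 without were higher (medians 0.13 and 0.06). For the GAS, 9 of 16 members with a match were higher (median 1.17), as were 18 of 35 without (median 1.01), and the shares among genes that are no members were 16.9% with and 17.2% without.

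The ligands themselves showed little signal. Of 14 interferon genes on the array, 6, among them Ifnb1, were not well above background in either channel, and 7 others lay within 2-fold, from −0.16 to 0.11 on the log2 scale. Ifng, which encodes interferon gamma, was the exception. It was not well above background at E14.5 (99.2) and stood at 693 at E18.5, at least 6.99-fold higher, and its second probe gave 1.79. The kinases lay within 2-fold: Jak2 at 1825 and 3590 (0.98), Jak1 at 15118 and 20284 (0.42) and Tyk2 at 836 and 984 (0.23). Of the other receptor chains, Il10rb, shared by the interferon lambda and interleukin 10 receptors, was at 9911 and 28543 (1.53, 2.88-fold, second probe 0.30), and Ifnlr1 at 3015 and 4028 (0.42).

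Of 16 sensors and adaptors outside the rule, 4 were higher (25.0%, beside 17.3% of all genes), 0 were lower and 12 lay within 2-fold, with a median of 0.49. With the scanner software's ratio, 6 were higher and 3 were lower. The highest were Tlr4 (202 and 968; 2.26), the kinase Ikbke (305 and 1040; 1.77) and Tlr7 (138 and 415; 1.59). Of 13 negative regulators of interferon signalling, 3 were higher (23.1%), 1 was lower (7.69%) and 9 lay within 2-fold, with a median of −0.14. These shares lie near those of all genes, 17.3% and 10.1%. Socs3, which inhibits signals through STAT3, was at 3443 and 13653 (1.99, 3.97-fold), and Cish, a related inhibitor of STAT5, at 3831 and 13089 (1.77, 3.42-fold). Sharpin, a part of a ubiquitin ligase complex, was at 8113 and 16631 (1.04; 0.89 by the scanner software). Pias3, an inhibitor of STAT3 binding to DNA, was at 2132 and 859 (−1.31, 2.48-fold lower, second probe −0.30). Socs1, an inhibitor of JAK kinases, was at 1229 and 919 (−0.42).

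Of 54 measured interferon-stimulated genes outside the rule, 24 were higher (44.4%, beside 17.3% of all genes), 1 was lower (1.85%, beside 10.1%) and 29 lay within 2-fold, with a median of 0.87. This list, too, was chosen with earlier results of these data known. Lgals3bp, a secreted glycoprotein, was at 653 and 31826 (5.61, 48.8-fold). The GTPase gene Tgtp1 was at 155 and 2893 (4.22, 18.6-fold), but another of its probes lay at 0.50. Rtp4, a chaperone of membrane receptors, was at 396 and 5370 (3.76, 13.6-fold). Mov10, an RNA helicase, was at 5322 and 2063 (−1.37, 2.58-fold lower). The chemokines Cxcl9 and Cxcl10 were not well above background in either channel.

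Markers of other cells were measured in the same RNA. The shares to set beside their counts are those of all genes, 17.3% higher and 10.1% lower. All 13 markers of airway and lung epithelium were well above background at both ages, with a summed intensity of 370811 at E14.5 and 640653 at E18.5. Of the 13, 6 were higher and 1 was lower, with a median of 0.75. In this list 9 genes lay above 0, up to Elf5 (1.99), and 4 below. Those below were Cldn4 (−1.17), Epcam (36278 and 21590, −0.75), Nkx2-1 (32845 and 22110, −0.57) and Grhl2 (−0.23). Of 26 leukocyte markers, 15 were higher, 0 were lower and 11 lay within 2-fold, with a median of 1.67, above the median of the interferon genes. Their summed intensities, which add probes of unequal response and serve only to set the ages side by side, were 13754 and 191641. Without Lyz2, which alveolar epithelium also makes, the other 25 summed to 11985 and 44726. Ptprc, the pan-leukocyte antigen CD45, was at 148 and 1365 (3.21, other probe 0.53), and the macrophage marker Adgre1 at 483 and 3568 (2.89). Of other macrophage genes in the list, Mrc1 (3.03), Csf1r (1.72, lowest probe −0.02), C1qa (1.71) and C1qc (1.51) were higher. Aif1 (0.88), C1qb (0.70) and Cd68 (870 and 1095, 0.33) lay within 2-fold. The B cell gene Cd79a and the natural killer cell gene Nkg7 stayed dim at both ages (115 and 97.7, 132 and 109), and Spi1 and Itgam were not well above background at E14.5.

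Endothelial markers were also higher in part, with 8 of 15 past 2-fold (53.3%, beside 17.3% of all genes), 0 lower and a median of 1.11. Their sums were 36587 and 146869, and Kdr alone, at 4090 and 71669 (4.13), made up a large part of the E18.5 sum. The 7 within 2-fold included Pecam1 (0.64), Cdh5 (0.35), Eng (0.12) and Tie1 (0.09). Of 13 mesenchyme and smooth muscle markers, 0 were higher and 5 were lower, with a median of −0.38 and sums of 584719 and 477342, so RNA of such cells was present at both ages. The part of leukocyte and endothelial RNA in the interferon values was not tested.

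**Figure D5:**
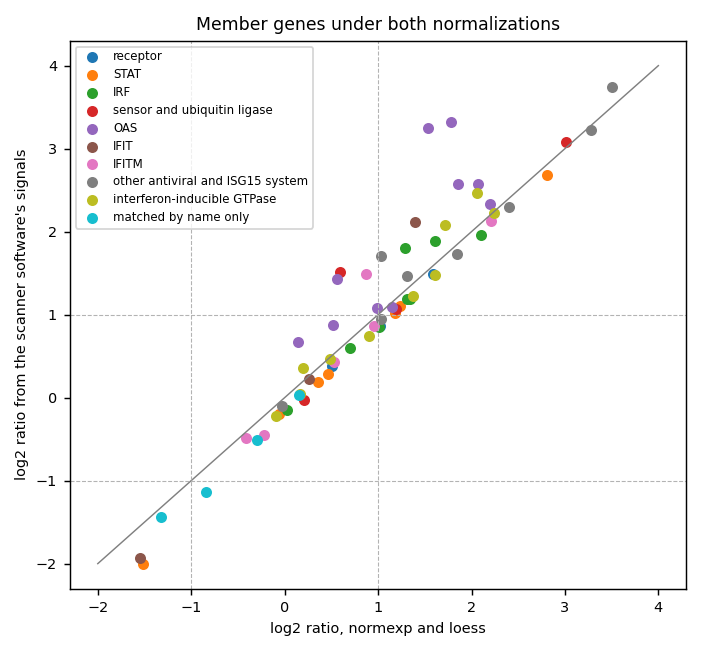
Log2 ratio of each member gene in the scanner software's processed signals (vertical axis) against the main value (horizontal axis), coloured by role, with the line of equality and dashed lines at 2-fold. The OAS genes form the largest group above the line, joined by genes of several other roles that were mostly dim at E14.5. On both axes 30 genes lay past the 2-fold line upwards and 3 downwards.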

How the data were processed

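Scanner output of 1 dual-colour array was analysed; both deposited scanner tables were identical in 115 of 115 columns and were read as 1 array. They hold linear mean and background intensities as deposited by the authors, made with Agilent Feature Extraction 9.5.3.1 per the submitters' processing notes, and the same software's processed intensities, its log10 ratio of red over green and its flags (other values of 0 or 1), per the file headers. Probe positions are on mm8, per the file headers. The authors' value table holds linear intensities: each column equalled the processed intensity of its own channel times 0.339, with a floor of 15 and no centring (column medians 129 for E14.5 and 130.2 for E18.5); where that factor came from is not given here.

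Mean intensities were corrected by normexp (offset 50) and the log2 ratio was normalized by loess, with a span of 0.3 and 4 iterations, using limma 3.58.1 and R 4.3.3. The offset pulls ratios of dim genes towards 0, and loess hides a shift common to most genes. Of 45018 spots, 1639 were controls and 160 of 43379 probe spots were outliers; both had weight 0 and were left out, and 0 probe spots were saturated. Repeated spots were averaged, and the brightest probe well above background in at least 1 channel stood for its gene. Where it was so in a single channel, a lower bound on the change was computed, open to dye bias; bounds at or under 0 gave no value. Names were updated by accession or symbol through RefSeq (GRCm38.p6), which named 33099 probes and all 67 member genes, 62 of them by accession. The normalization was tested on simulated data in which 200 of 43219 probes, all among the brighter ones, were changed, equally many up and down. Of these, 100% were recovered past 2-fold. The simulation cannot speak for dim genes or for a shift of many genes to one side. Python 3.11.15 with pandas 2.3.3, numpy 2.4.6 and matplotlib 3.10.9 made the tables and plots.

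The median net signal was 256 (E14.5) and 308 (E18.5), beside 45.9 ± 4.33 and 23.8 ± 4.79 (SD) over 153 negative control spots, and 75.2% and 78.7% of probes were well above background. The number of arrays, 1, limits the precision. The groups come from the sample titles. The members and lists were chosen with earlier results of these data known. Some genes are counted but not reported here by name. Named were otherwise all measured receptors, STATs and IRFs, and other members past 2-fold with the same sign in the scanner ratio. The members closest to 0 in each role were named too. In each pathway list outside the rule, the 3 genes farthest from 0 each way among those past 2-fold were named. Other members within 2-fold, and Jak1, Jak2, Tyk2, Ifnlr1, Socs1, Ifnb1, Cxcl9 and Cxcl10 were named beyond these choices after their values were seen. Marker genes of other cells followed no such ranking and were named with their values known. Alternatives were the scanner ratio, median centring, an offset of 10, the authors' table, the median over probes, other filters on dim probes and each probe counted.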

Additional observations from a re-analysis of the deposited data

How the results depend on the processing

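No processing alternative turned the direction of a count or of the members' median. Of the 64 member genes with a ratio, between 34 and 35 were at least 2-fold higher by the scanner software's ratio, median centring, an offset of 10 and the authors' table, with medians from 1.07 to 1.13 and 3 or 4 lower. The median over probes gave 28 higher and 2 lower (median 0.89), probes well above background in both channels 31 of 59, no filter 33 of 67, and each of 91 probes counted 42 higher and 3 lower (median 0.92). Chosen after seeing the data, genes with an E14.5 intensity of at least 200 gave 23 of 44 higher, with a median of 1.01. The scanner ratio moved the median of all genes by −0.12, and the members' median lay 1.13 above it, with 17.9% of all genes higher and 15.4% lower. It took Ifngr1, Irf3 and Bst2 inside 2-fold and put Ifitm6, Oasl1, Oas1e and Zbp1 past it upwards and Irf2bp1 (−1.14) past it downwards. In the pathway lists outside the rule, 33 of 96 genes were higher and 2 lower; with the scanner ratio 5 were lower, the added ones being Dhx58 (−1.04), Cgas (−1.32) and Traf3 (−1.15); the cause was not tested. Of the 64 single genes, 16 moved by more than the median SD between probes of a gene (0.33) with the scanner ratio, 15 with the authors' table, 10 with the median over probes, 6 with an offset of 10 and 0 with median centring. No paired analysis was possible because each age had 1 sample and the labels give no replicate numbers. Signal limits the 20 member genes with an E14.5 intensity under 200, of which 10 were among the 33 higher: their folds depend on the background correction.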

Other observations

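Genes that cut and load antigen for presentation, which interferons also induce, were among the listed genes outside the rule and were picked here after their values were seen. The immunoproteasome subunits Psmb8 (252 at E14.5 and 1900 at E18.5, log2 ratio 2.91), Psmb9 (537 and 1652, 1.62) and Psmb10 (3744 and 9647, 1.37) were each at least 2-fold higher, and Psmb8 was so on both of its probes. Tapbp, the tapasin that bridges the transporter and class I molecules, was at 5856 and 14959 (1.35), with its other probe at 0.28. The transporter subunit Tap1 (188 and 303, 0.69) and the class I light chain B2m (22180 and 32804, 0.56) lay within 2-fold. Uba7, the enzyme that activates ISG15 for conjugation, was at 1514 and 12021 (2.99, 7.94-fold), while Ube2l6, the conjugating enzyme of the same pathway, lay within 2-fold at 908 and 1501 (0.72). Eif2ak2, which encodes the kinase PKR, was at 3667 and 2596 (−0.50), and Adar, the RNA-editing deaminase, at 3170 and 2534 (−0.32, other probe 0.58).

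Some probes carry older names in the scanner output and so fell outside the rule although their present symbols fit it. Irf2bpl, a relative of the IRF2-binding proteins, was at 12590 and 32103 (1.35). Gbp6 (162 and 233, 0.52), Gbp9 (174 and 229, 0.40) and Gbp11 (132 and 153, 0.21) were dim and within 2-fold. Ifit3b was dim too and had only a lower bound, of 0.20. Ifitm10 was at 580 and 373 (−0.64). Gbp8 and Ifit1bl2 were not well above background in either channel.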
